A study of Homo sapiens with 12 samples.

Results

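The transcripts of DAZAP1, RBM14, MATR3, HNRNPF, SRPK2, PTBP1 and TRA2A, which encode paraspeckle-associated RNA-binding proteins and splicing regulators, were followed through NONO eCLIP peak lists. Their peaks were taken as those that the authors annotated to 1 of these 7 gene names. They were 270 of 26351 peaks, on 7 of 1689 gene names. All peaks came from 22Rv1, a human prostate cancer cell line. Cells received SKBG-1(R) at 20 µM in 0.04% DMSO, its stereoisomer SKBG-1(S) at 20 µM in 0.04% DMSO, or 0.04% DMSO alone, each for 4 h, and each treatment had 2 immunoprecipitation libraries with an input library apiece. The study's title names small molecules that target NONO, so the comparisons ask where NONO contacts RNA with each stereoisomer. NONO-knockout cells and RNA-seq, which the design names, are not analysed here.

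NONO binds RNA in the nucleus and, with its partners SFPQ and PSPC1, coats the long noncoding RNA NEAT1 to form paraspeckles. Several other proteins of these bodies, RBM14, DAZAP1 and MATR3 among them, bind RNA themselves, and many also take part in splicing. Splicing regulators commonly act on their own transcripts or on those of related factors. In eCLIP, UV light crosslinks protein to RNA, and reads from the immunoprecipitated protein are set against reads of the input to call peaks.

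The lists held 1953 and 14847 peaks under SKBG-1(R), 1237 and 3967 under SKBG-1(S), and 669 and 3678 in DMSO, for replicates 1 and 2. Each peak carries the authors' own log2 enrichment over input, at least 3 in every list, and a −log10 p of at least 3. Sequencing depth is unknown, so a transcript without a peak is not shown to be unbound, and levels are given as peaks per 10000 peaks of the list. The libraries are bulk, so that fewer cells with a contacted transcript and fewer contacts per cell cannot be told apart. The lists hold no expression values against which the cell line's label could be checked. The labels do not state whether the replicates are separate cultures, and a p-value here reflects the spread between libraries, which may be technical.

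The sequences that could be read under the peaks show a coding exon of RBM14 with peaks under SKBG-1(R) alone, the intron of TRA2A, which had none under SKBG-1(R), and stretches of DAZAP1 and MATR3 that lay under peaks of several lists. They were read from GENCODE 29 transcripts (GRCh38) that hold the stretch as an exon, run 5′ to 3′ on the strand of the gene, and were chosen after the values were seen. In RBM14 and TRA2A the capitals mark bases under a peak of any list. In DAZAP1 they mark bases under peaks of 2 lists, and the whole MATR3 stretch lay under peaks.
RBM14 coding exon, chr11:66625330-66625597, plus strand: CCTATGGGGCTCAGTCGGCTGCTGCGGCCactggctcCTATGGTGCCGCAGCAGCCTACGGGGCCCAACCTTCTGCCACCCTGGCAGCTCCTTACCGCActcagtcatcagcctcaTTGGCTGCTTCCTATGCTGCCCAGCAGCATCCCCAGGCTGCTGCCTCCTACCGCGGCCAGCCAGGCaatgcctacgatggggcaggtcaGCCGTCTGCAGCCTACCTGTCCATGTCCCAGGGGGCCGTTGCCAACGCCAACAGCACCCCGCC
TRA2A first intron, chr7:23531417-23531546, minus strand: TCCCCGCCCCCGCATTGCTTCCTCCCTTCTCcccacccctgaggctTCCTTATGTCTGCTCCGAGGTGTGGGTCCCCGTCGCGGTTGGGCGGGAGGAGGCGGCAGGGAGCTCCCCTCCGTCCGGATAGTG
DAZAP1 first intron, chr19:1416223-1416339, plus strand: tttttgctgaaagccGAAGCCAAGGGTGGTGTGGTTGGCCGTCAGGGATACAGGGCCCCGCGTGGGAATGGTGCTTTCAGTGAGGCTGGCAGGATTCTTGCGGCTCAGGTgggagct
DAZAP1 first intron, chr19:1416437-1416525, plus strand: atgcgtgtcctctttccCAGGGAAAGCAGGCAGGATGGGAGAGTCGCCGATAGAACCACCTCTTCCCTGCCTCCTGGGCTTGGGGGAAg
MATR3 exon end at a 5′ splice site, chr5:139294071-139294100, plus strand: AGGGTGCGGCGGGAGATTTTGGGTGAAGAG
The RBM14 stretch had peaks in both SKBG-1(R) lists and in no other list, and its GC content was 66.4%. Regions found only under SKBG-1(R), in either list or both, were 64.4% of the 16419 regions formed by merging the overlapping peaks of all genes. Of all regions, 9945 were in SKBG-1(R) replicate 2 alone. Regions in both SKBG-1(R) lists and in no other were 140 among all genes, and none of them was in RBM14. The TRA2A stretch, with a GC content of 69.2%, had peaks in both SKBG-1(S) lists and DMSO replicate 2 and in neither SKBG-1(R) list. The upstream DAZAP1 stretch was shared by SKBG-1(R) replicate 2 and DMSO replicate 2, and the downstream by SKBG-1(R) replicate 2 and SKBG-1(S) replicate 2. The MATR3 stretch was covered in both SKBG-1(S) and both DMSO lists.

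The 7 transcripts held 23 and 121 peaks under SKBG-1(R), 23 and 51 under SKBG-1(S), and 9 and 43 in DMSO. Per 10000 peaks these were 117.77 and 81.5 under SKBG-1(R), 185.93 and 128.56 under SKBG-1(S), and 134.53 and 116.91 in DMSO. The SKBG-1(S) lists overlapped the range of the DMSO lists, and SKBG-1(R) replicate 2 was the lowest of all. DAZAP1 carried 126 of the 270 peaks and ranked 29 among all gene names by number of peaks. RBM14 and HNRNPF followed with 34 each, SRPK2 with 25, PTBP1 with 23, MATR3 with 21 and TRA2A with 7. Per 10 kb of gene, which allows genes of unlike length to be set side by side, DAZAP1 held 44.81 peaks, RBM14 31.58, PTBP1 15.08 and HNRNPF 14.44. MATR3 held 5.52, TRA2A 2.57 and SRPK2, a gene of 288605 nt, 0.87. These densities pool the 6 lists, and SKBG-1(R) replicate 2 gave 71 of the 126 peaks in DAZAP1 and 15 of 23 in PTBP1. In RBM14 it gave 13 of 34 and in HNRNPF 12 of 34, so the order of these genes leans on that list.

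**Figure D1:**
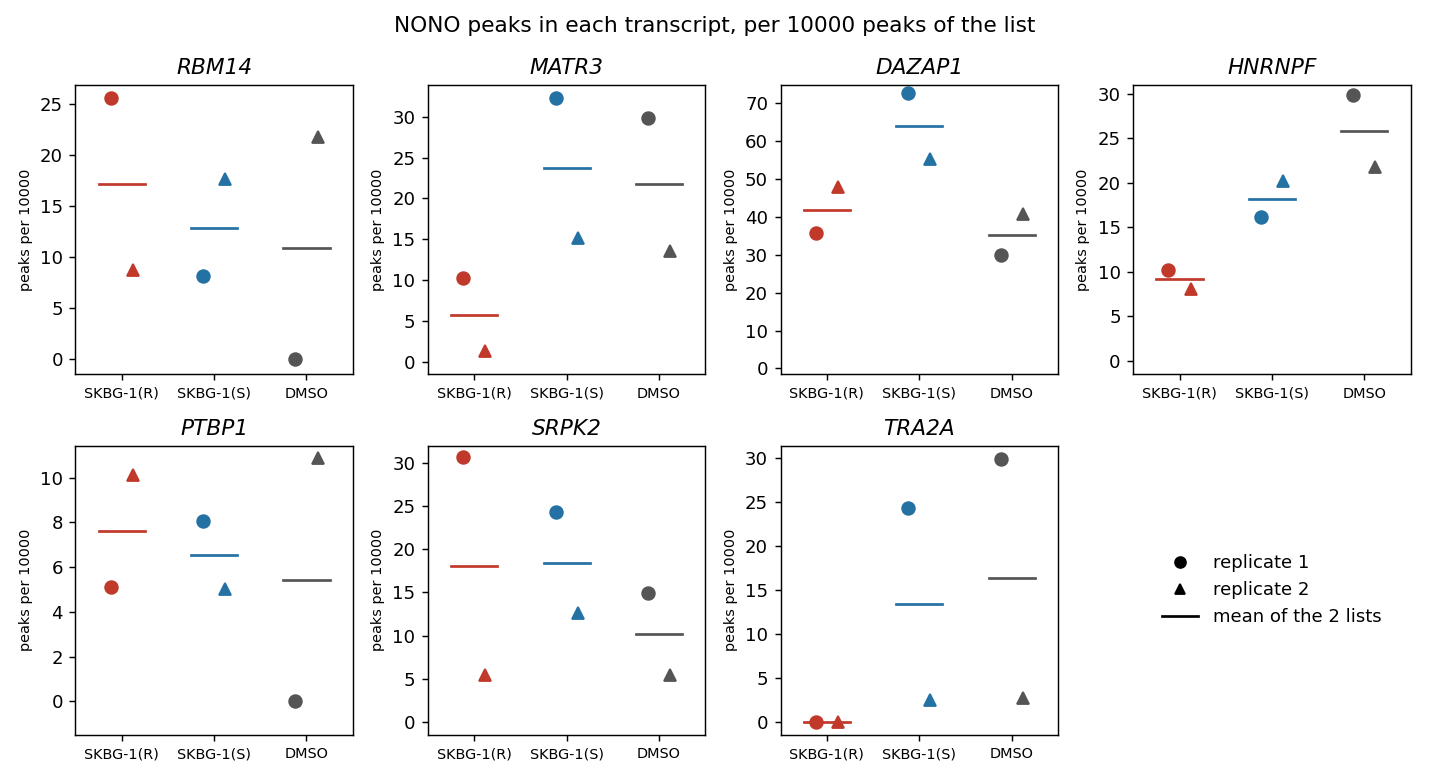
Peaks in each transcript per 10000 peaks of the list (y axis), for SKBG-1(R), SKBG-1(S) and DMSO from left to right; circles are replicate 1, triangles replicate 2, and lines the mean of the 2 lists. HNRNPF stands at 10.24 and 8.08 with SKBG-1(R) and at 29.9 and 21.75 in DMSO, MATR3 is lowest in the SKBG-1(R) lists, DAZAP1 is highest in the SKBG-1(S) lists, and TRA2A has no peak in either SKBG-1(R) list.

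Most of these contacts were to pre-mRNA. Their median position was 0.077 of the way along the gene from its 5′ end, against 0.228 for all peaks with a known position. By the authors' annotation, introns held 81.48% of the 270 peaks (95% Wilson interval 76.42 to 85.66, which covers counting error only), against 90.1% of all 26351 peaks. Introns close to a splice site, the authors' proximal class, held 38.52%, against 21.93% of all peaks. Coding exons held 6.3%, against 1.62%, and 3′ UTRs 4.44%, against 1.13%. The authors' 5′ UTR class held 7.78%, against 5.09%. RBM14 held 22 of the 50 peaks in these 3 exonic classes, with 10 of the 17 in coding exons and all 12 in 3′ UTRs, and the 21 in 5′ UTRs were 10 in MATR3, 9 in HNRNPF and 2 in DAZAP1. Within 1 kb of an annotated transcript start lay 131 of the 270 peaks, or 48.52% (42.62 to 54.46), against 28.78% of all peaks with an annotated start. Without SKBG-1(R) replicate 2, whose peaks lay further from starts in general, these shares were 59.73% and 39.17%. These shares are descriptions over peaks, many of which share a transcript or adjoin each other.

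The place of the peaks differed from gene to gene. Every peak of MATR3 (21 of 21) and TRA2A (7 of 7) lay within 1 kb of a start, as did 32 of 34 in HNRNPF and 23 of 25 in SRPK2. In DAZAP1 they were 45 of 126 and in PTBP1 3 of 23. RBM14 was the opposite case, with 0 of 34: its peaks all lay between 0.684 and 0.99 of the way along the gene. In HNRNPF, MATR3 and TRA2A all peaks fell in the span of the first intron of a transcript that covers them, and in DAZAP1 112 of 126 did. The remaining 14 DAZAP1 peaks, 3 at exon 1 and 11 from intron 3 onwards, were all in SKBG-1(R) replicate 2.

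**Figure D2:**
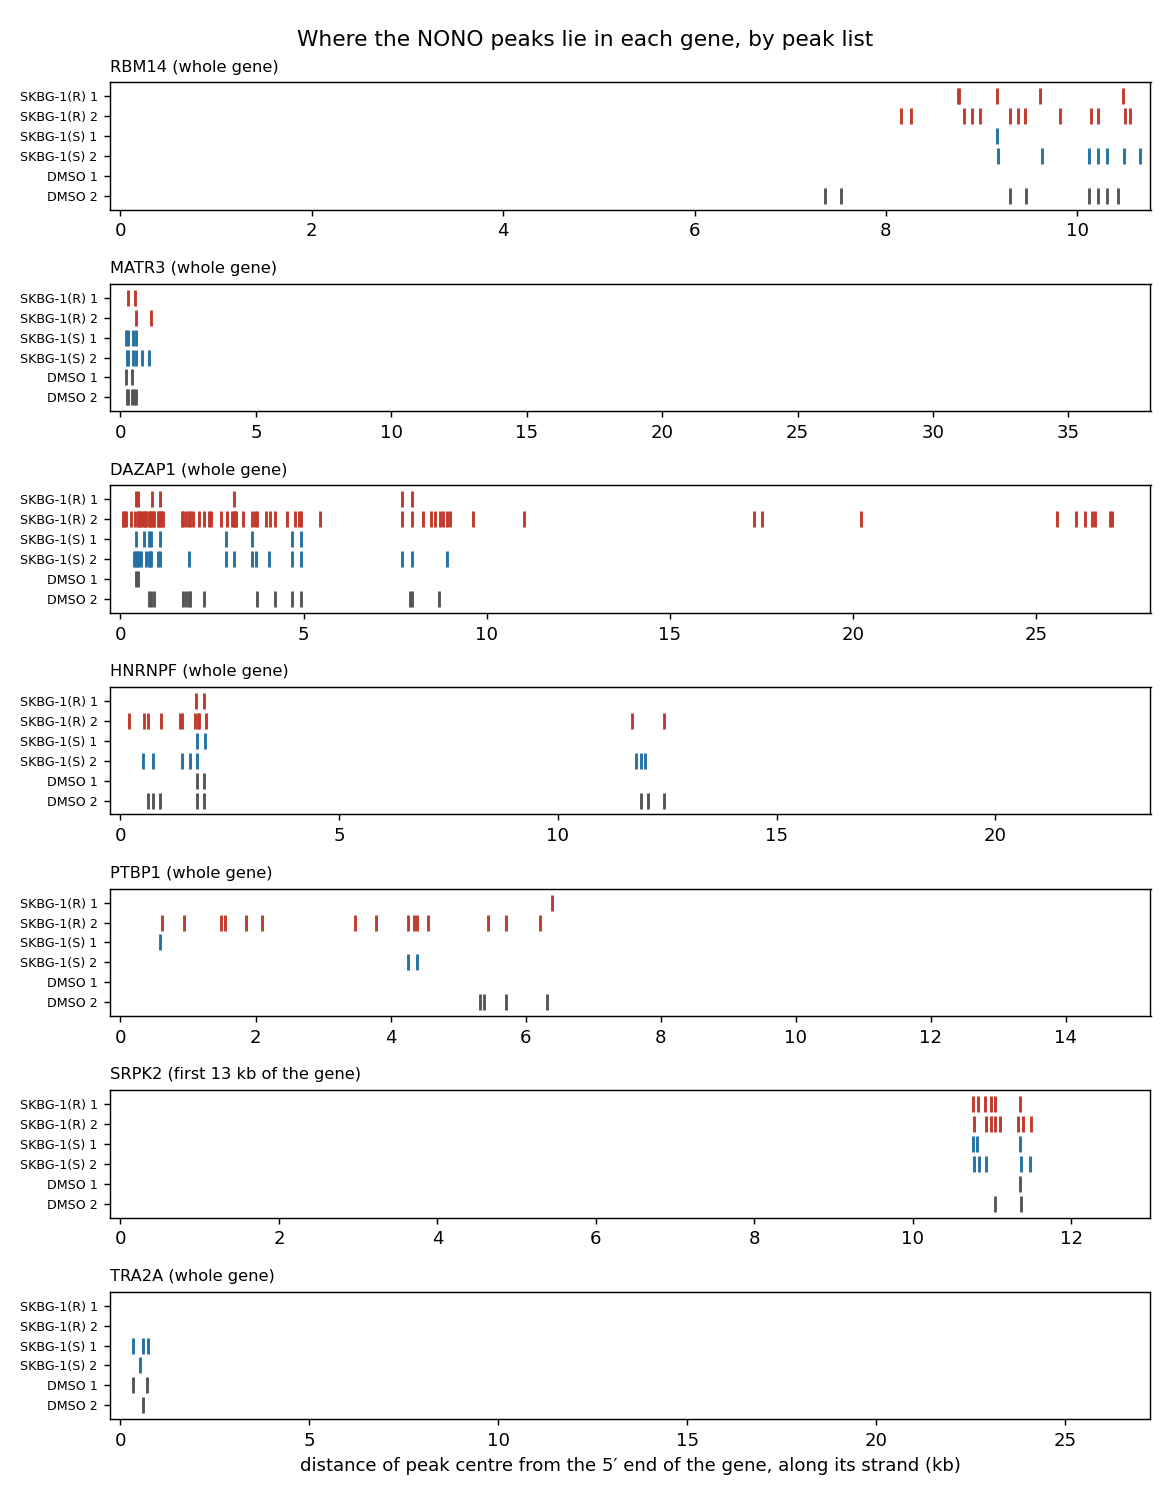
Position of every peak centre along its gene, as distance in kb from the gene's 5′ end (x axis), with 1 row per list, SKBG-1(R) at the top and DMSO at the bottom. MATR3, TRA2A and most HNRNPF peaks gather near the 5′ end, SRPK2 peaks gather near a transcript start inside the gene (the rest of the gene, without peaks, is not drawn), RBM14 peaks lie near its 3′ end, and DAZAP1 peaks downstream of intron 1 are in SKBG-1(R) replicate 2.

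Among the paraspeckle proteins, RBM14 encodes a coactivator with a prion-like domain that paraspeckle assembly requires. Its gene (ENSG00000239306.4) runs on the plus strand of chromosome 11 from 66616582 to 66627347. It held 5 and 13 peaks under SKBG-1(R), 1 and 7 under SKBG-1(S), and 0 and 8 in DMSO. Scaled to 10000 peaks, these were 25.6 and 8.76 under SKBG-1(R), 8.08 and 17.65 under SKBG-1(S), and 0 and 21.75 in DMSO, so that the groups overlapped. Of the peaks within exon 2 of its 3-exon transcript ENST00000310137.4, a coding exon, 2 and 5 were in the SKBG-1(R) lists, 0 and 0 in the SKBG-1(S) lists and 0 and 0 in the DMSO lists. This exon was singled out after its values were seen, and the peaks of the SKBG-1(R) lists did not overlap each other there. Regions seen only under SKBG-1(R), in either list or both, were 64.4% of those of all genes and 48% of those of the 7 transcripts. Regions in both SKBG-1(R) lists and in no other were 140 among all genes and 0 in the 7 transcripts. The exon 2 peaks had log2 enrichments of 3.854 and 3.828 in replicate 1, and of 3.204 to 3.9 in replicate 2. Those of replicate 1 were 14 and 15 nt wide and adjoined each other, so they need not be separate contacts. In replicate 2 the peaks from 66624683 to 66624797 and from 66624798 to 66624889 also adjoined. Exon 3, which holds the 3′ UTR, had 1 and 4 peaks under SKBG-1(R), 0 and 5 under SKBG-1(S), and 0 and 4 in DMSO. The RBM14 region found in the most lists was in that 3′ UTR, from 66626980 to 66627140, with peaks in both SKBG-1(R) lists, SKBG-1(S) replicate 2 and DMSO replicate 2. RBM14's strongest peak, at 5.225 in DMSO replicate 2, lay from 66626663 to 66626745, at the end of the coding sequence. A further 16 peaks were annotated to the readthrough transcript RBM14-RBM4 or to joint names with it: 2 and 4 under SKBG-1(R), 1 and 3 under SKBG-1(S), and 0 and 6 in DMSO.

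MATR3 encodes matrin 3, an RNA-binding protein of the nuclear matrix that represses exons. On the plus strand of chromosome 5 (ENSG00000015479.18, 139293648 to 139331677), it held 2 and 2 peaks under SKBG-1(R), 4 and 6 under SKBG-1(S), and 2 and 5 in DMSO. Relative to list length, in peaks per 10000, it had 10.24 and 1.35 under SKBG-1(R), 32.34 and 15.12 under SKBG-1(S), and 29.9 and 13.59 in DMSO. Both SKBG-1(R) lists were below both lists of the other groups, which overlapped each other. The share of genes with SKBG-1(R) below both groups was not counted. By pairs, of 479 genes, 9.39% had SKBG-1(R) below DMSO without overlap, and 16.3% had it below SKBG-1(S). Its 21 peaks spanned 196 to 1112 nt from the gene's 5′ end, 10 of them in the 5′ UTR class, 4 in coding exons and 7 in proximal introns. The region from 139294012 to 139294287 had a peak in all 6 lists, at 3.72 and 3.22 under SKBG-1(R), 5.12 and 4.41 under SKBG-1(S), and 3.33 and 3.85 in DMSO. These peaks did not all share a base. In this region the SKBG-1(R) peaks ran from 139294177 to 139294229 and from 139294192 to 139294235, and the DMSO replicate 1 peak from 139294028 to 139294123. Enrichment was computed in each list against its own input, so the enrichments describe the lists and were not tested between them.

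DAZAP1 encodes an hnRNP-like protein that takes part in splicing and translation. It lies on the plus strand of chromosome 19 (ENSG00000071626.16, 1407569 to 1435687) and held 7 and 71 peaks under SKBG-1(R), 9 and 22 under SKBG-1(S), and 2 and 15 in DMSO. As peaks per 10000, the values were 35.84 and 47.82 under SKBG-1(R), 72.76 and 55.46 under SKBG-1(S), and 29.9 and 40.78 in DMSO. Both SKBG-1(S) lists stood above all 4 others, and the SKBG-1(R) and DMSO lists overlapped. The share of genes with SKBG-1(S) above all 4 was not counted. By pairs, of 479 genes, 13.4% had SKBG-1(S) above DMSO without overlap, and 16.3% had SKBG-1(R) below SKBG-1(S). Distal introns held 93 of its peaks and proximal introns 29. Intron 1 held 7 and 57 peaks under SKBG-1(R), 9 and 22 under SKBG-1(S), and 2 and 15 in DMSO. Merged over lists, the peaks formed 54 regions, of which 33 were found in 1 list, each time SKBG-1(R) replicate 2. The regions from 1407908 to 1408224 and from 1408317 to 1408510 were found in 5 lists. The first lacked a peak in DMSO replicate 2 and the second in DMSO replicate 1. A region from 1408617 to 1408711 had peaks in all 4 lists of the compounds, at 3.75 and 4.65 with SKBG-1(R) and 3.73 and 3.2 under SKBG-1(S), and in neither DMSO list. It was the sole region of the 7 transcripts with that pattern, against 49 among all 16419 regions.

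HNRNPF encodes a protein that binds G-rich RNA and regulates splicing. On the minus strand of chromosome 10 (ENSG00000169813.16, 43385617 to 43409166), it held 2 and 12 peaks under SKBG-1(R), 2 and 8 under SKBG-1(S), and 2 and 8 in DMSO. In peaks per 10000 of the list it had 10.24 and 8.08 under SKBG-1(R), 16.17 and 20.17 under SKBG-1(S), and 29.9 and 21.75 in DMSO. The 3 groups did not overlap, with the SKBG-1(R) lists lowest and the DMSO lists highest. The share of genes with this order of 3 groups was not counted. By pairs, of 479 genes, 9.39% had SKBG-1(R) below DMSO without overlap. For SKBG-1(R) below SKBG-1(S) the share was 16.3%, and for SKBG-1(S) below DMSO 4.8%. In numbers of peaks, with no scaling to the list, the SKBG-1(S) and DMSO lists were the same. The region from 43407340 to 43407504, in a proximal intron, had a peak in all 6 lists, at 3.66 and 4.74 under SKBG-1(R), 3.7 and 4.0 under SKBG-1(S), and 3.75 and 3.64 in DMSO. The neighbouring region from 43407164 to 43407326 had a peak in every list but SKBG-1(S) replicate 2. A separate group of peaks lay about the later starts, with the farthest 12436 nt from the gene's 5′ end, and 9 of the gene's 34 peaks were in the 5′ UTR class.

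Among the splicing regulators, SRPK2 encodes a kinase that phosphorylates SR proteins. On the minus strand of chromosome 7 (ENSG00000135250.16, 105110704 to 105399308), it held 6 and 8 peaks under SKBG-1(R), 3 and 5 under SKBG-1(S), and 1 and 2 in DMSO. That made, per 10000 peaks, 30.72 and 5.39 under SKBG-1(R), 24.25 and 12.6 under SKBG-1(S), and 14.95 and 5.44 in DMSO, so that the groups overlapped. In numbers alone the compound lists were all above the DMSO lists, as in 6.89% of the 479 genes with at least 10 peaks. In nt covered by peaks they were not: SKBG-1(S) replicate 1 covered 177 nt and DMSO replicate 2 covered 199. All 25 peaks fell between 10760 and 11486 nt from the gene's 5′ end, and 346 to 1072 nt from the nearest annotated start. They formed 4 regions in this gene of 288605 nt. The region from 105387873 to 105388009 had a peak in all 6 lists, at 4.84 and 4.33 under SKBG-1(R), 4.33 and 3.9 under SKBG-1(S), and 3.8 and 3.77 in DMSO. The region from 105388236 to 105388576 had a peak in every list but DMSO replicate 1.

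PTBP1 encodes the polypyrimidine tract-binding protein, a repressor of exons that also acts on its own transcript. On the plus strand of chromosome 19 (ENSG00000011304.19, 797075 to 812327), it held 1 and 15 peaks under SKBG-1(R), 1 and 2 under SKBG-1(S), and 0 and 4 in DMSO. On the scale of peaks per 10000 it had 5.12 and 10.1 under SKBG-1(R), 8.08 and 5.04 under SKBG-1(S), and 0 and 10.88 in DMSO, and the groups overlapped. Introns 1 and 2 of ENST00000349038.8 spanned 7 and 16 of its peaks. Its regions recurred little: 15 of 19 were in 1 list, and none was in more than 2. The region that leads by its weaker list, from 802767 to 802810, had peaks in SKBG-1(R) replicate 2 and DMSO replicate 2.

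TRA2A encodes an SR-like splicing activator, whose transcript carries a poison exon under its own control. It lies on the minus strand of chromosome 7 (ENSG00000164548.10, 23504780 to 23532041) and held 0 and 0 peaks under SKBG-1(R), 3 and 1 under SKBG-1(S), and 2 and 1 in DMSO. Set against 10000 peaks of the list, these were 0 and 0 under SKBG-1(R), 24.25 and 2.52 under SKBG-1(S), and 29.9 and 2.72 in DMSO. It was the only one of the 7 transcripts without a peak in either list of a group. Of the 751 genes with at least 5 peaks, 0.932% had a peak in all 4 other lists and in neither SKBG-1(R) list, and of the 272 with as few as 5 to 9 peaks, 4.78% had none in either SKBG-1(R) list. All 7 peaks were in proximal introns, 340 to 718 nt from the gene's start, with log2 enrichments of 3.09 to 3.89. Its leading region, from 23531290 to 23531360, had peaks in SKBG-1(S) replicate 1 and DMSO replicate 1. Lists that hold only peaks above a minimum set no limit on binding to TRA2A under SKBG-1(R), even though the longest list is 1 of the 2.

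Of the 123 regions that the peaks of the 7 transcripts formed, 3 had a peak in all 6 lists, in SRPK2, HNRNPF and MATR3 as given. That is 2.44%, against 0.62% of the 16419 regions of all genes, and regions in 5 or 6 lists were 5.69% against 1.78%. The 7 transcripts were chosen with earlier results of these data known, so this contrast is a description only. A region joins peaks that overlap in a chain, so 6 lists need not share a single base, and in the MATR3 region they did not. Regions in both lists of a group numbered 12 for SKBG-1(R), 13 for SKBG-1(S) and 4 for DMSO, and 0 of these in each group were in no other list. Among all genes, 140, 18 and 3 regions were in both lists of SKBG-1(R), SKBG-1(S) and DMSO and in no other. Regions in a single list were 72 of 123, of which SKBG-1(R) replicate 2, the longest list, gave 56.

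**Figure D3:**
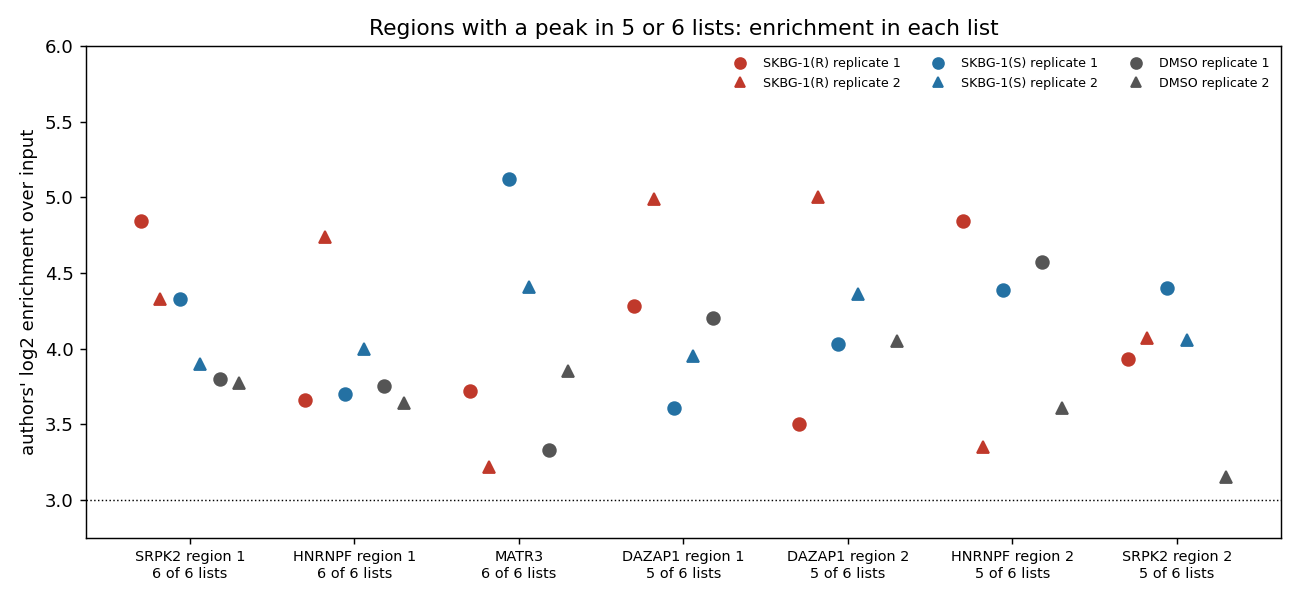
The authors' log2 enrichment over input (y axis) in each list for the 7 regions with a peak in 5 or 6 lists, in the order SKBG-1(R), SKBG-1(S), DMSO within each region; circles are replicate 1, triangles replicate 2, and the dotted line is the lists' minimum of 3. Values run from 3.15 to 5.12, with the SKBG-1(S) lists at 5.12 and 4.41 in the MATR3 region and the DMSO lists at 3.8 and 3.77 in the first SRPK2 region.

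SKBG-1(R) was first set against DMSO. A minimum of 10 peaks in all left 479 genes to test, 6 of the 7 transcripts among them; TRA2A held too few. limma on log2 peaks per 10000, with a prior count of 2 and Benjamini-Hochberg adjustment, called 0 of the 6, and 0 (0%) of all 479. At an unadjusted p under 0.05 there were 0 of the 6 and 15 of the 479. Both SKBG-1(R) lists were below both DMSO lists in peaks per 10000 for 2 of the 6, HNRNPF and MATR3, a pattern that 9.39% of the 479 genes showed. None of the 6 was above without overlap, against 10.4%. HNRNPF averaged 9.16 ± 1.53 peaks per 10000 under SKBG-1(R), against 25.82 ± 5.76 in DMSO (SD, n = 2 each), a log2 fold change of −1.14 (95% interval −3.25 to 0.97, limma adjusted p = 0.993). With no scaling it was 0.24, where the median of all tested genes was 1.10 in place of 0.23, and with lists cut to an equal number of the most enriched peaks it was 0.29. MATR3 averaged 5.8 ± 6.29 under SKBG-1(R), against 21.74 ± 11.53 in DMSO, a log2 fold change of −1.42 (−3.63 to 0.79, limma adjusted p = 0.993). It was below 0 under every alternative that tested it, at −0.40 with no scaling, −2.01 with a prior count of 0.5, −2.25 with a minimum −log10 p of 5, −0.76 without SKBG-1(R) replicate 2 and −2.08 without SKBG-1(R) replicate 1. MATR3 was not tested with a minimum log2 enrichment of 4 or with lists of equal size. RBM14 was at 0.87 (−1.49 to 3.23), PTBP1 at 0.51 (−1.78 to 2.80), SRPK2 at 0.42 (−1.82 to 2.67) and DAZAP1 at 0.22 (−1.69 to 2.13). The median of the 6 was 0.32, against 0.23 over all tested genes. TRA2A was at −1.80 where at least 5 peaks were required (−4.06 to 0.47, limma adjusted p = 0.997) or no filter was set (−3.88 to 0.28, limma adjusted p = 0.836), a value that depends on the prior count because both SKBG-1(R) lists were at 0.

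For SKBG-1(S) against the same DMSO lists, limma again called 0 of the 6 and 0 (0%) of the 479 genes, with 0 of the 6 and 6 of the 479 at an unadjusted p under 0.05. DAZAP1 was above without overlap, a pattern that 13.4% of the 479 genes showed. It averaged 64.11 ± 12.23 peaks per 10000 under SKBG-1(S), against 35.34 ± 7.69 in DMSO (SD, n = 2 each), a log2 fold change of 0.79 (95% interval −1.13 to 2.70, limma adjusted p = 1). Under a minimum log2 enrichment of 4 it was −0.46 and under a minimum −log10 p of 5 it was −0.33. HNRNPF was below without overlap, against 4.8% of the 479 genes, at −0.41 (−2.52 to 1.70). It was 0 with no scaling, 0.65 with a minimum log2 enrichment of 4 and 0.66 with lists of equal size. SRPK2 was at 0.67 (−1.58 to 2.92), RBM14 at 0.61 (−1.75 to 2.97), PTBP1 at 0.39 (−1.90 to 2.68) and MATR3 at 0.11 (−2.10 to 2.32). Their median of 0.50 stood beside 0.14 for all tested genes. TRA2A was at −0.15 (−2.41 to 2.12) where at least 5 peaks were required.

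Between the stereoisomers, 3 of the 6 transcripts were below with SKBG-1(R) without overlap, DAZAP1, MATR3 and HNRNPF, against 16.3% of the 479 genes, and 0 were above, against 6.26%. limma called 0 of the 6 and 0 (0%) of the 479 genes, with 0 of the 6 and 5 of the 479 at an unadjusted p under 0.05. MATR3 averaged 5.8 ± 6.29 peaks per 10000 under SKBG-1(R), against 23.73 ± 12.18 under SKBG-1(S) (SD, n = 2 each), a log2 fold change of −1.53 (95% interval −3.74 to 0.68, limma adjusted p = 0.995). Its sign was the same under every alternative that tested it, at −0.79 with no scaling, −2.13 with a prior count of 0.5, −2.37 with a minimum −log10 p of 5, −0.86 without SKBG-1(R) replicate 2 and −2.19 without SKBG-1(R) replicate 1. Here too, a minimum log2 enrichment of 4 and lists of equal size did not test it. HNRNPF averaged 9.16 ± 1.53 under SKBG-1(R), against 18.17 ± 2.83 under SKBG-1(S), at −0.73 (−2.83 to 1.38), and was at 0.24 with no scaling, where the median of all tested genes was 0.75 in place of −0.08. DAZAP1 averaged 41.83 ± 8.47 under SKBG-1(R), against 64.11 ± 12.23 under SKBG-1(S), at −0.57 (−2.48 to 1.34), and turned to 0.66 with no scaling, 0.46 with a minimum log2 enrichment of 4 and 0.13 with lists of equal size. SRPK2 was at −0.25 (−2.49 to 2.00), PTBP1 at 0.11 ± 1.10 (SE) and RBM14 at 0.26 (−2.10 to 2.62). The median of the 6 was −0.41, against −0.08 over all tested genes. TRA2A was at −1.65 (−3.91 to 0.62) where at least 5 peaks were required. Every one of these intervals took in 0, so neither a difference between the stereoisomers nor its absence was shown.

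**Figure D4:**
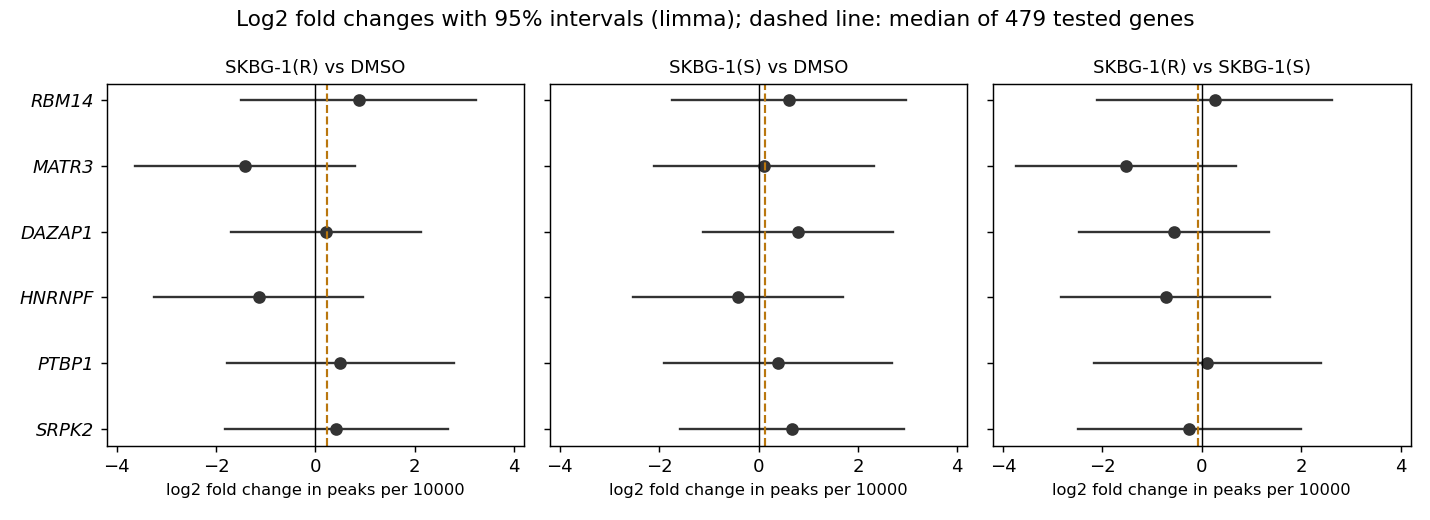
Log2 fold changes in peaks per 10000 (x axis) of the 6 tested transcripts for SKBG-1(R) vs DMSO, SKBG-1(S) vs DMSO and SKBG-1(R) vs SKBG-1(S); points are limma estimates, bars 95% intervals, and the dashed line the median of the 479 tested genes. Every bar crosses 0; MATR3, at −1.42 and −1.53, lies farthest below in the comparisons with SKBG-1(R) first.

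Wider lists of the same pathways, which include the transcripts already described, were also counted. Of 42 listed paraspeckle proteins, 11 had a peak and 7 were tested, and of 85 listed splicing factors, 14 had a peak and 4 were tested; some genes stand on both lists. limma called 0 of the 7 and 0 of the 4 in each comparison, with a single gene, SRRM4 with SKBG-1(R) against DMSO, at an unadjusted p under 0.05. Paraspeckle proteins had medians of 0.22, 0.61 and −0.73 for SKBG-1(R) against DMSO, SKBG-1(S) against DMSO and SKBG-1(R) against SKBG-1(S), and splicing factors −0.36, −0.01 and −0.49. These medians rest largely on the transcripts already described, which were 4 of the 7 and 3 of the 4 tested genes. The 3 other paraspeckle genes had medians of 0.45, 0.84 and −0.82. Outside the 7 transcripts, AHDC1, a DNA-binding protein found in paraspeckles, held 0 and 21 peaks under SKBG-1(R), 0 and 2 under SKBG-1(S), and 0 and 2 in DMSO. SS18L1, a subunit of neuronal BAF chromatin complexes, held 0 and 7 under SKBG-1(R), 1 and 4 under SKBG-1(S), and 0 and 3 in DMSO. SMARCA4, the ATPase of BAF complexes, held 2 and 3 under SKBG-1(R), 2 and 4 under SKBG-1(S), and 0 and 1 in DMSO. SRRM4, a neural splicing activator, held 0 and 0 under SKBG-1(R), 1 and 2 under SKBG-1(S), and 6 and 3 in DMSO, at a log2 fold change of −2.93 for SKBG-1(R) against DMSO (95% interval −5.33 to −0.52, limma adjusted p = 0.993). Like TRA2A, it was without a peak in both SKBG-1(R) lists.

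The genes most like these transcripts over the 6 lists were ranked by Pearson's r of log2 peaks per 10000 as a description, since 6 lists that differ in length and share libraries give no test. For DAZAP1 they were the joint name ZNF581,ZNF580 at 0.95, PLCXD1 at 0.95 and RP5-1103G7.4 at 0.93. For RBM14 they were RREB1, a zinc finger transcription factor, at 0.96, UBE2G1, a ubiquitin-conjugating enzyme, at 0.94 and SCARB1, a receptor for high-density lipoprotein, at 0.93. For HNRNPF, which ties with RBM14 in number of peaks, they were the dopamine receptor gene DRD4 at 0.97, AFF3 at 0.97 and GPR35, an orphan G protein-coupled receptor, at 0.96. AFF3 held 1 and 0 peaks under SKBG-1(R), 9 and 21 under SKBG-1(S), and 17 and 31 in DMSO. It had the same order of groups as HNRNPF in peaks per 10000, but not in numbers of peaks. In numbers, HNRNPF held 2 and 12 under SKBG-1(R), 2 and 8 under SKBG-1(S), and 2 and 8 in DMSO.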

How the data were processed

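The samples were 12 eCLIP libraries of 22Rv1 cells, grouped by their titles. UV crosslinking was at 400 mJ, per the labels' protocols. The submitters' processing notes name cutadapt 1.9 and STAR 2.4.0i. The authors deposited 1 peak list per immunoprecipitation against its own input, with a −log10 p-value (minimum 3, cap 400, reached by 47 peaks and 0 on the 7 transcripts) and a log2 enrichment over input (minimum 3) for each peak. For the peak caller and read depth, the sources used here give nothing, and the peaks of a list, 669 to 14847, set the precision.

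Peaks were assigned by the authors' gene names. Of 9850 annotated transcripts 99.5% had GENCODE 29 (GRCh38) coordinates within 1 nt. Coordinates are 1-based. Regions merged same-strand peaks that overlapped by at least 1 nt. Peaks per 10000 were tested on the log2 scale (prior count 2, scaled to list size) with limma 3.58.1 in R 4.3.3, trended prior variance, all 6 lists in 1 fit, 479 genes with at least 10 peaks, Benjamini-Hochberg threshold 0.05. The test was run on simulated lists whose replicates varied by counting error alone. That run cannot speak for the spread between these libraries. The members and gene lists were chosen with earlier results of these data known. Named were all 7 transcripts, regions in at least 5 lists or else in the most, other listed genes with at least 10 peaks, and the 3 genes most like the leading transcripts. Alternatives changed the prior count, filters, scaling, limits, list length, the lists used and the replicate block; 1, which joined RBM14 with its readthrough transcript, and those without the longest list for shares were added after seeing the data.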

Additional observations from a re-analysis of the deposited data

How the results depend on the processing

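The 6 tested transcripts were not called under any alternative run, with limma adjusted p-values of 0.529 or more. Of 264 alternative fold changes, 230 kept their sign, 2 were at 0 and 32 turned. HNRNPF and PTBP1 were at 0 for SKBG-1(S) against DMSO with no scaling. With no scaling, HNRNPF turned to 0.24 for SKBG-1(R) against DMSO and between the stereoisomers, where DAZAP1 turned to 0.66 and SRPK2 to 0.60. Without scaling, the median of all tested genes was 1.10 for SKBG-1(R) against DMSO and 0.75 between the stereoisomers, above each of these values. With median scaling, MATR3 for SKBG-1(S) against DMSO turned to −0.19. With summed widths, RBM14 turned to −0.21 and PTBP1 to −0.31 between the stereoisomers. With a minimum log2 enrichment of 4, DAZAP1 turned to −0.46 and HNRNPF to 0.65 for SKBG-1(S) against DMSO, and DAZAP1 to 0.46 between the stereoisomers. With a minimum −log10 p of 5, DAZAP1 turned to −0.38 and RBM14 to −0.28 for SKBG-1(R) against DMSO, DAZAP1 to −0.33 and PTBP1 to −0.37 for SKBG-1(S) against DMSO, and RBM14 to −0.42 between the stereoisomers. With lists of equal size, HNRNPF turned to 0.29 and 0.66 for SKBG-1(R) and SKBG-1(S) against DMSO, and DAZAP1 to 0.13 between the stereoisomers. The cause was not tested.

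Leaving out 1 list at a time gave, for SKBG-1(R) against DMSO, −0.39 to 2.14 for RBM14, −2.08 to −0.76 for MATR3, −0.49 to 1.34 for SRPK2 and −0.37 to 1.39 for PTBP1. For SKBG-1(S) against DMSO it gave −0.65 to 1.88 for RBM14, −0.35 to 0.57 for MATR3 and −0.49 to 1.27 for PTBP1. Between the stereoisomers it gave −0.33 to 0.85 for RBM14, −2.19 to −0.86 for MATR3, −1.16 to 0.67 for SRPK2 and −0.19 to 0.41 for PTBP1. Where a group kept 1 list, that list was assumed to vary like the others.

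Over all 479 genes, 0 were called for SKBG-1(R) against DMSO. The number was 1, AFF3, with at least 5 peaks required or with summed widths, 1 under the replicate block, and 0 to 23 leaving out 1 list, with 23 reached when SKBG-1(R) replicate 1 was left out and 1 when DMSO replicate 2 was. It was 0 to 24 between the stereoisomers, with 24 again without SKBG-1(R) replicate 1, and 0 throughout for SKBG-1(S) against DMSO. The replicate block changed no other call: same-numbered lists deviated together (r of 0.42 to 0.58 over 479 genes), but the labels do not say that the numbers mark a shared day or culture. Replicate 1 was also the shorter list in every group, so the replicate number and list length cannot be told apart in these r values.

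The 3 regions found in all 6 lists became 0 with a minimum log2 enrichment of 4 and 0 with a minimum −log10 p of 5. How many of the 101 such regions of all genes remained under these limits is not reported here. The intronic share was 86.81% at the first of these limits and 78.52% without SKBG-1(R) replicate 2. Without that list, the share within 1 kb of a start was 59.73%. With a median half-interval of 2.23 on the log2 scale, changes under 4.69-fold lay within the error of a typical gene.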
